A study of Mus musculus with 36 samples.

Results

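M2b macrophages, grown on a dish coated with immunoglobulin and stimulated with IFN-γ at the end of culture, were compared with macrophages given IFN-γ on an uncoated dish. The comparison rests on 6 arrays of 36, taken by the sample titles, with 3 arrays in each group. M2b macrophages came from bone marrow monocytes sorted as Ly6C+ Ly6G- CD11b+. They were kept for 7 days in all in 10% FCS and 20 ng/ml M-CSF, on dishes that had stood overnight under human immunoglobulin (Sandoglobulin, 1 mg/ml) and been washed, and 25 ng/ml IFN-γ was present in the last 24 h. IFN-γ macrophages had the same sorted monocytes, serum, M-CSF and IFN-γ, and no coating. M1 macrophages, used below as a further point of reference, had 25 ng/ml IFN-γ and 100 µg/ml LPS as labelled, and no coating.

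The coating thus met the mouse cells throughout culture, whereas IFN-γ met them for 1 day, and the immunoglobulin was human. No group had the coating without IFN-γ. Whether replicate arrays stem from different mice is not stated in the labels, so each p-value reflects array-to-array spread alone, which may be technical. The other groups in the series were unstimulated macrophages (M0), macrophages given IL-4 (M2a) or dexamethasone (M2c), 4 cultures of regulatory macrophages (Mreg), monocyte-derived dendritic cells (Mo-DC) and fresh monocytes, and they entered the fit that estimated the spread.

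Fcγ receptors bind the constant part of IgG. In the mouse, Fcgr1, Fcgr3 and Fcgr4 are activating receptors that signal through the shared γ chain Fcer1g, whose tyrosine motif is phosphorylated by kinases of the Src family and then recruits Syk, while Fcgr2b carries an inhibitory motif and recruits phosphatases. Macrophages that meet immune complexes together with a second stimulus are called M2b in the usual nomenclature, and are known for high IL-10 with little IL-12, and for Sphk1, Tnfsf14 and Ccl1.

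The arrays were single-colour Agilent arrays. A level below is log2 of a probe's processed signal minus the 75th percentile of its array, so that 0 is a signal equal to that percentile, and a difference is the M2b mean minus the IFN-γ mean on this scale unless another pair is named. Levels of different genes are not set against each other, since each probe has its own response. The 75th percentile of signal lay between 517 and 648 on the 6 arrays, 54.13 to 55.92% of their probes were well above background, and no spot was saturated. M2b and IFN-γ macrophages of the same series number lay on the same slide, 3 slides in all, with M2b always at position 1 and IFN-γ macrophages always at position 3, so position and coating cannot be told apart.

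Both groups carried macrophage transcripts. Of 14 macrophage markers, 13 were well above background on all 3 arrays of each group, and their summed linear signal, in multiples of the array's 75th percentile, was 1193 to 1346 (median 1243) in M2b and 1370 to 1500 (median 1441) in IFN-γ macrophages. The Ly6C-high monocyte markers summed to 414.3 to 525.1 (median 463.6) in M2b and 362.9 to 401.8 (median 380.5) in IFN-γ macrophages, and all 11 tested were well above background in both. The neutrophil and granulocyte precursor markers summed to 2.543 to 11.94 (median 7.951) in M2b and 4.526 to 6.754 (median 5.061) in IFN-γ macrophages. None of the 14 tested was called, but 3 were higher and 3 lower at an unadjusted p under 0.05 (limma). With slide as a block 1 was lower. Their differences ran from -2.43 to 2.67, and 7 of them in M2b and 3 in IFN-γ macrophages were well above background on no array. The T and NK cell markers summed to 12.88 to 17.22 in M2b and 4.709 to 5.585 in IFN-γ macrophages, but without Il7r to 0.305 to 0.4102 and 0.2431 to 0.3071. Cd3d, Cd3g and Cd8a were not well above background on any of the 6 arrays. Of the 10 tested other than Il7r, 3 in M2b and 3 in IFN-γ macrophages were well above background on all 3 arrays. With Il7r, 3 were higher and 1 lower at an unadjusted p under 0.05 (limma), and 2 were higher with slide as a block. The stromal and endothelial markers summed to 2.311 to 3.157 in M2b and 1.85 to 2.266 in IFN-γ macrophages, with Col1a1 and Pdgfrb not well above background. Of the 10 tested, 5 were well above background on all 3 arrays of each group, and 1, Dcn, was called higher in M2b. The part of these shifts in the results below was not tested, and in bulk RNA fewer cells of a type and less RNA per cell cannot be told apart.

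Of 17605 genes tested, 381 (2.16%) were higher and 313 (1.78%) lower in M2b than in IFN-γ macrophages, 694 in all (3.94%; limma, adjusted p under 0.05 by Benjamini and Hochberg). By the fitted difference, 210 of them (1.19%) were at least 2-fold higher and 125 (0.710%) at least 2-fold lower. On the same measure 25 were at least 8-fold higher and 6 at least 8-fold lower. These counts include dim genes, some of which are given below only a smaller fold as a bound. Of the 694, 573 were well above background on all 6 arrays and 39 on some arrays of both groups. For 25 no M2b array, for 52 no IFN-γ array and for 5 no array of either group was above background. Most genes moved little: over all genes tested the median difference was 0.00 and the median absolute difference 0.18. For 686 of the 694 called genes the M2b and IFN-γ arrays did not overlap, against 27.0% of all genes tested, and 693 of the 694 had the same direction on all 3 slides. With slide as a block, 684 genes (3.89%) were higher and 653 (3.71%) lower, 1337 in all, and 691 of the 694 were among them. The count also moved with single arrays, to 245 without M2b array 3, 413 without M2b array 2, 274 without IFN-γ array 1 and 338 without IFN-γ array 2.

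**Figure D1:**
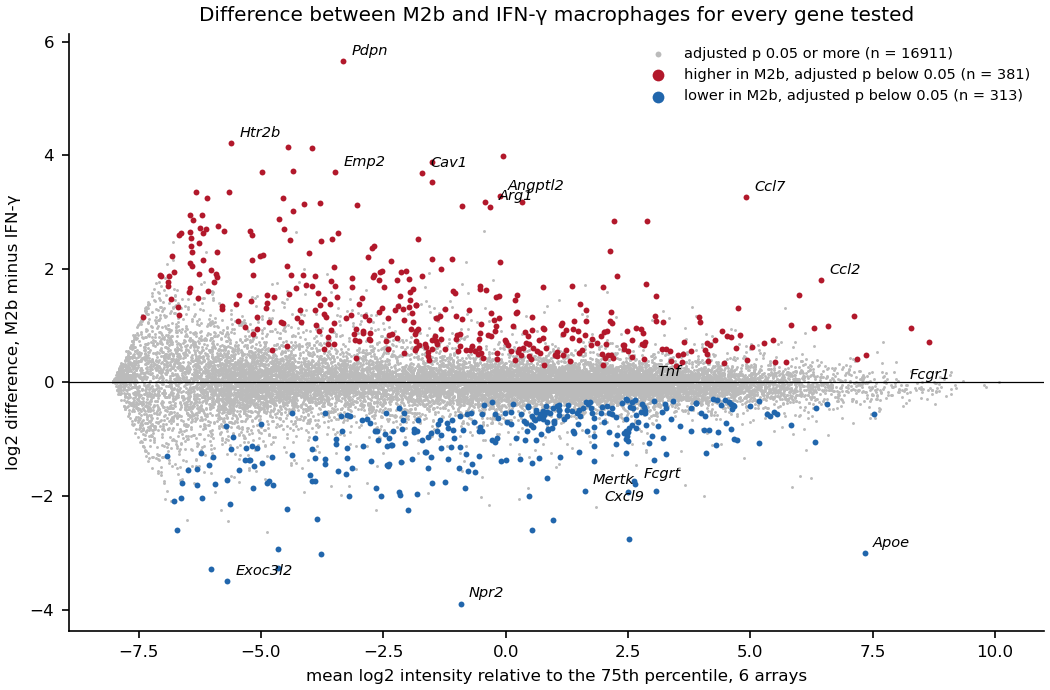
Each point is a gene: the horizontal axis is its mean log2 level over M2b and IFN-γ macrophages and the vertical axis its difference, M2b minus IFN-γ. The 381 genes called higher and 313 called lower are coloured and the other genes tested are grey, and the rises reach further from 0 than the falls.

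None of the signalling IgG receptors passed the test over all genes. Fcgr1, the high-affinity IgG receptor, had levels of 8.04, 8.12 and 8.03 in M2b and 8.04, 8.23 and 8.05 in IFN-γ macrophages. The difference was -0.04, with a 95% interval of -0.60 to 0.52 (limma, adjusted p = 0.979), and it turned to 0.02 without IFN-γ array 2. Its arrays overlap, and the interval leaves out a change of 2-fold either way.

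Fcgr4, an activating receptor, was at 6.07, 5.86 and 5.14 in M2b and 6.43, 6.33 and 6.09 in IFN-γ macrophages, a difference of -0.59 (interval -1.12 to -0.06, adjusted p = 0.241 in limma). Fcgr2b, the inhibitory receptor, was at -1.29, -1.80 and -1.58 in M2b against 0.05, -0.80 and -0.18 in IFN-γ macrophages, a difference of -1.24 whose interval ran from -2.53 to 0.04 (limma, adjusted p = 0.347). All 3 M2b arrays lie below all 3 IFN-γ arrays for both receptors, and neither passed the test over all genes. Fcgr3 differed by -0.26 and the γ chain Fcer1g by -0.17, neither past the threshold.

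Of the 9 tested members of the IgG Fc receptor list, 1 fell and none rose (11.1%, against 1.78% of all genes lower), and the median difference was -0.41 (all genes 0.00). The one that fell was Fcgrt, the neonatal Fc receptor, which returns IgG and albumin from endosomes to the cell surface. Its levels were 2.46, 1.84 and 0.95 in M2b and 4.09, 3.59 and 2.95 in IFN-γ macrophages, a difference of -1.79 ± 0.30 (SE; limma, adjusted p = 0.000608). No M2b array reached the lowest IFN-γ array.

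The signalling genes behind the receptors showed 1 fall among 29 tested members (3.45%, against 1.78% of all genes lower), with a median of -0.09. That gene was Ptpn6, the phosphatase SHP-1 that inhibitory receptors recruit, at 5.12, 5.10 and 4.97 in M2b and 5.63, 5.59 and 5.61 in IFN-γ macrophages, a difference of -0.55 ± 0.11 (SE; limma, adjusted p = 0.00426). The groups are tight and do not overlap. Syk differed by 0.06. Lyn, a kinase of the Src family that acts at both kinds of receptor, differed by -0.46 and missed the threshold (limma, adjusted p = 0.0806), but passed it with slide as a block (adjusted p = 0.0138).

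None of the 14 tested markers reported for M2b macrophages passed the test in limma (2 higher and none lower at an unadjusted p under 0.05, and 1 higher with slide as a block). Il10, the cytokine most associated with the type, was at -2.30, -0.67 and -0.57 in M2b and -1.79, -0.88 and -0.70 in IFN-γ macrophages. The difference was -0.06 with an interval of -1.18 to 1.06 (limma, adjusted p = 0.984). The spread within each group exceeded the gap between them, and without M2b array 1 the difference was 0.50, without IFN-γ array 2 0.06 and without IFN-γ array 3 0.15. Il12a and Il12b, the subunits of IL-12, were not well above background in either group, so no fold is given.

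Tnf was at 2.75, 2.72 and 3.35 in M2b and 2.86, 2.59 and 3.36 in IFN-γ macrophages, a difference of 0.00 with an interval of -0.69 to 0.70; it was -0.04 without IFN-γ array 1, -0.17 without IFN-γ array 2 and -0.20 without M2b array 3. Il1b differed by -0.96 and Tnfsf14, the ligand LIGHT, by -0.29, without passing. For Tnf and Tnfsf14 the arrays overlap, while all 3 M2b arrays of Il1b lie below all 3 IFN-γ arrays. Sphk1, the kinase that makes sphingosine 1-phosphate and a reported M2b marker, was at 0.00, 0.02 and 0.73 in M2b and -2.31, -1.88 and -1.44 in IFN-γ macrophages. The difference of 2.13 ± 0.62 (SE) stood at the threshold without passing it (limma, adjusted p = 0.050) and passed with slide as a block (adjusted p = 0.000483). Hbegf, an epidermal growth factor receptor ligand also reported for immune complex macrophages, differed by 1.21 with no overlap between the groups (limma, adjusted p = 0.136).

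**Figure D2:**
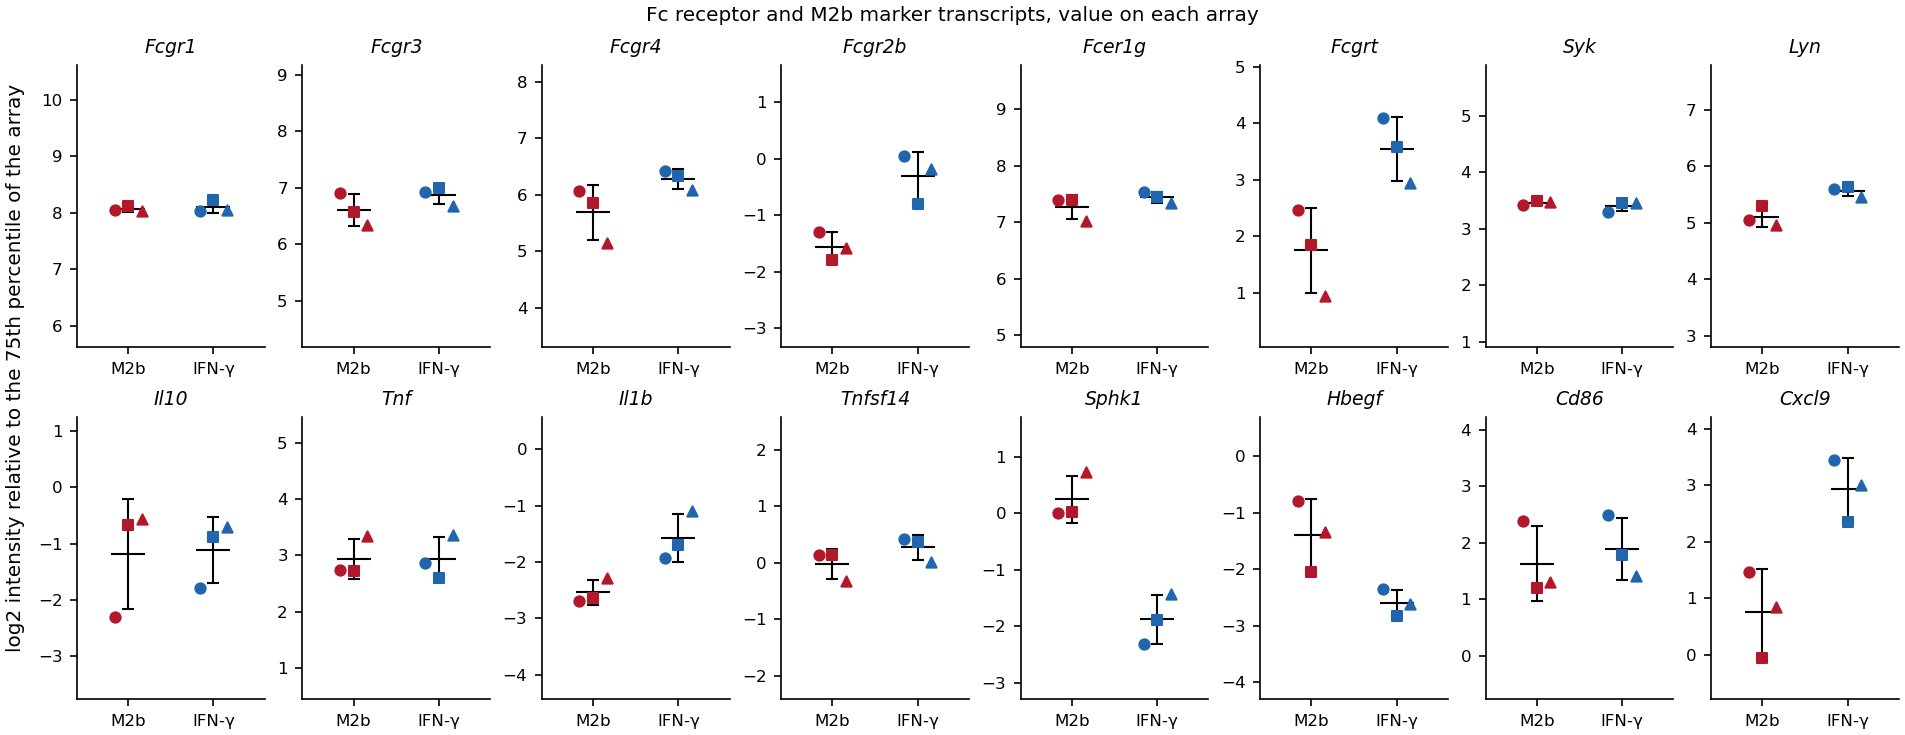
Log2 level per array for 8 Fc receptor and signalling genes (Fcgr1, Fcgr3, Fcgr4, Fcgr2b, Fcer1g, Fcgrt, Syk, Lyn) and 8 reported M2b or macrophage activation genes (Il10, Tnf, Il1b, Tnfsf14, Sphk1, Hbegf, Cd86, Cxcl9), with M2b left of IFN-γ macrophages in each panel. Circles, squares and triangles are series 1, 2 and 3, bars are the mean ± SD of 3 arrays, and every panel spans 5 log2 units; of these 16 genes only Fcgrt passed the test.

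Pdpn, which encodes podoplanin, a mucin-like membrane glycoprotein that binds the platelet receptor CLEC-2, was at -0.78, -0.85 and 0.17 in M2b. On the IFN-γ arrays its probe read -6.51, -6.33 and -5.60 and was not well above background. Taking the lowest signal called well above background as a floor for the dimmer group, Pdpn was at least 36.9-fold higher in M2b (limma on the unraised values, adjusted p = 4.09e-07).

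Emp2, a tetraspan protein that organises integrins and caveolae, was at -1.62, -1.78 and -1.51 in M2b and -5.18, -5.49 and -5.33 in IFN-γ macrophages, a difference of 3.70 ± 0.44 (SE; limma, adjusted p = 1.43e-05). Cav1, the coat protein of caveolae, was at -0.72, 0.30 and 0.85 in M2b and -4.20, -3.69 and -2.75 in IFN-γ macrophages, a difference of 3.69 ± 0.49 (SE; limma, adjusted p = 5.16e-05). Both genes are far apart between the groups on every slide. Angptl2, a secreted angiopoietin-like protein, was at 1.37, 1.29 and 1.89 in M2b and -1.93, -1.64 and -1.73 in IFN-γ macrophages, a difference of 3.29 ± 0.31 (SE; limma, adjusted p = 6e-07). A second probe for Angptl2 above background on all 6 arrays differed by 3.52.

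A further set of genes was seen in M2b and was not well above background on any IFN-γ array. Rgs16, which shortens G protein signals, was at least 6.87-fold higher in M2b (limma, adjusted p = 0.000336). Zfp462, a zinc finger protein, was at least 5.99-fold higher and Htr2b, a serotonin receptor, at least 4.59-fold higher. Gipc2, a PDZ domain protein, and Cadps, which primes dense-core vesicles for release, were at least 3.32-fold and 2.06-fold higher. These are lower bounds set by the floor. With normexp background correction in limma none of these 5 passed: the differences were 1.02 for Rgs16, 0.85 for Zfp462, 0.83 for Htr2b, 0.54 for Gipc2 and 0.42 for Cadps (adjusted p = 0.0549, 0.242, 0.294, 0.573 and 0.956).

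A cluster of stefin A genes, inhibitors of cysteine cathepsins on chromosome 16, also rose. Csta2 was at 1.23, 1.85 and 2.75 in M2b and -2.36, -2.68 and -1.08 in IFN-γ macrophages, a difference of 3.99 ± 0.65 (SE; limma, adjusted p = 0.000523), and Cstdc6 differed by 3.88 ± 0.74 (adjusted p = 0.00216). Cstdc4 (3 M2b and 2 IFN-γ arrays above background) and Stfa2l1 (3 and 1) differed by 4.12 and 3.72, and lost their calls with normexp (1.49 and 1.32, adjusted p = 0.0738 and 0.0825 in limma). Members of this family are near copies of each other, so their probes may share signal and the genes are not separate findings. All of them also averaged higher in unsorted Mreg than in Mreg: Csta2 at 1.28 and -2.05, Cstdc6 at -0.22 and -3.53. Other groups were high as well: Csta2 averaged 0.70 in Mo-DC and -3.71 in fresh monocytes, and Cstdc6 -0.24 and 1.67. Whether uneven cell content has a part in their rise in M2b was not tested. Stfa2l1 lost its call without IFN-γ array 1 or 2 or M2b array 2 or 3 (adjusted p up to 0.134).

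**Figure D3:**
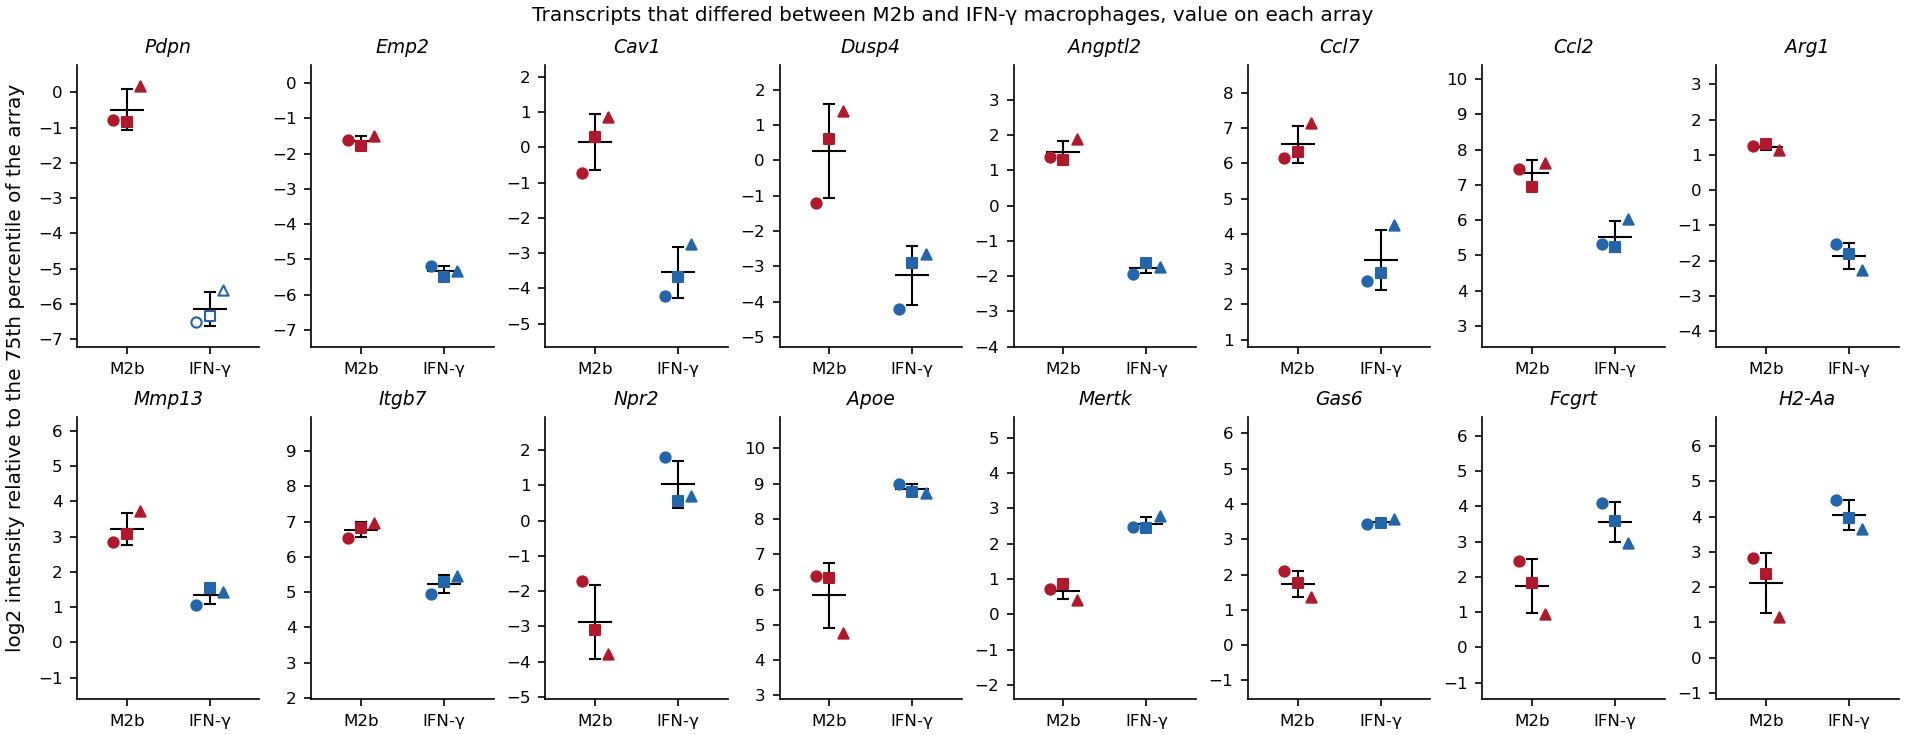
Log2 level per array for 16 genes: Pdpn, Emp2, Cav1, Dusp4, Angptl2, Ccl7, Ccl2, Arg1, Mmp13 and Itgb7, which were higher in M2b, and Npr2, Apoe, Mertk, Gas6, Fcgrt and H2-Aa, which were lower. M2b stands left of IFN-γ macrophages, symbols mark series 1, 2 and 3, bars are the mean ± SD of 3 arrays, open symbols mark a group with no array above background, and each panel spans 8 log2 units.

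Immediate early genes, AP-1 subunits and feedback regulators of MAP kinase signalling formed 1 list, and part of it rose. Of 33 tested immediate early, AP-1 and MAP kinase feedback genes, 6 rose and none fell (18.2%, against 2.16% of all genes higher), with a median difference of 0.23 and 26 of 33 above 0. Dusp4, a nuclear phosphatase for ERK, was at -1.21, 0.60 and 1.41 in M2b and -4.21, -2.91 and -2.66 in IFN-γ macrophages, a difference of 3.52 ± 0.60 (SE; limma, adjusted p = 0.000787). Fosl1, an AP-1 subunit that ERK stabilises, was at -2.78, -2.94 and -1.87 in M2b and -4.79, -4.96 and -5.30 in IFN-γ macrophages, a difference of 2.49 ± 0.33 (SE; adjusted p = 5.16e-05). Neither gene overlapped between groups.

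The other 4 were smaller. Spry2, an inhibitor of receptor tyrosine kinase signals, differed by 1.11, the transcription factor Klf4 by 1.08, Dusp1, the phosphatase MKP-1, by 1.05, and Dusp6, an ERK phosphatase of the cytoplasm, by 0.90 (limma, adjusted p from 0.0027 to 0.037). Each was higher on all 3 M2b arrays than on any IFN-γ array. A second Spry2 probe above background on all 6 arrays differed by -0.19, so the call of Spry2 rests on 1 of its probes. The call of Dusp1 was lost without IFN-γ array 1 or M2b array 2 or 3, and that of Dusp6 without any 1 of the arrays other than M2b array 1 (adjusted p up to 0.205).

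Among chemokines, 2 of 27 tested members rose and none fell (7.41%, against 2.16% of all genes higher), with a median of 0.31. Both attract monocytes through Ccr2. Ccl7 was at 6.15, 6.32 and 7.15 in M2b and 2.66, 2.90 and 4.25 in IFN-γ macrophages, a difference of 3.27 ± 0.58 (SE; limma, adjusted p = 0.00123), and a second probe differed by 3.29. Ccl2 was at 7.46, 6.93 and 7.62 in M2b and 5.33, 5.23 and 6.05 in IFN-γ macrophages, a difference of 1.81 ± 0.32 (SE; adjusted p = 0.00116). The lowest M2b array exceeded the highest IFN-γ array for both genes. Cxcl9, a T cell chemokine that IFN-γ induces, was at 1.47, -0.07 and 0.84 in M2b and 3.46, 2.36 and 3.00 in IFN-γ macrophages, a difference of -2.19 that missed the threshold (limma, adjusted p = 0.0794) and passed with slide as a block (adjusted p = 0.0339).

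Of 20 chemoattractant receptors, 3 rose and none fell (15%, against 2.16% of all genes higher; median -0.07). Ltb4r1, the high-affinity leukotriene B4 receptor, was at 2.66, 2.44 and 1.53 in M2b and 0.64, 0.70 and 0.20 in IFN-γ macrophages, a difference of 1.70 ± 0.38 (SE; limma, adjusted p = 0.0103). Gpr183, a receptor for oxysterols, differed by 1.33, and Cx3cr1, the fractalkine receptor, by 1.43 with only 1 IFN-γ array above background. All 3 genes lost the call on leaving out some arrays: Ltb4r1 without IFN-γ array 3 or M2b array 1 or 2, Gpr183 without IFN-γ array 1 or 2 or M2b array 2 or 3, and Cx3cr1 without any other than IFN-γ array 3 (adjusted p up to 0.193). Cx3cr1 also lost it with slide as a block (adjusted p = 0.0616). Ccr2 itself differed by 1.17, past the threshold only with the slide block (adjusted p = 0.0496).

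Matrix proteases and remodelling factors had the largest share of rises among the lists. Of 35 tested members 7 were higher and none lower (20.0%, against 2.16% of all genes higher), with a median of 0.34. Mmp13, a collagenase, was at 2.83, 3.08 and 3.73 in M2b and 1.05, 1.55 and 1.43 in IFN-γ macrophages, a difference of 1.87 ± 0.25 (SE; limma, adjusted p = 5.04e-05). Plau, the urokinase plasminogen activator, was at 2.55, 2.70 and 3.07 in M2b and 1.26, 1.58 and 1.75 in IFN-γ macrophages, a difference of 1.24 ± 0.29 (SE; adjusted p = 0.0111). No M2b array of either protease reached down to the IFN-γ arrays.

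Sdc1, a heparan sulfate proteoglycan, differed by 1.82, Pdgfa, a growth factor for mesenchymal cells, by 0.82, and Spp1, the secreted phosphoprotein osteopontin, by 0.71. Vegfc, a lymphatic growth factor, was at least 1.47-fold higher, with no IFN-γ array above background and overlapping arrays. Of those named, Mmp13 and Spp1 kept the call on leaving out each of the 6 arrays, Plau lost it without IFN-γ array 1 or M2b array 3, and Pdgfa, Sdc1 and Vegfc without IFN-γ array 1 or 2, M2b array 2 or 3, and for Pdgfa and Sdc1 also IFN-γ array 3.

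The promoter of Mmp13 is shown because it rose and carries TGACTCA, an element that AP-1, the dimer to which Fosl1 contributes, is known to bind. The window is the 250 bases before the RefSeq start (build GRCm38.p6), 5′ to 3′ on the gene's strand, with capitals marking the match. The pattern searched was TGANTCA on both strands, which is looser than that element. The Mmp13 window is chr9:7272264-7272513, plus strand, with the match 35 to 29 bases before the start.
Mmp13: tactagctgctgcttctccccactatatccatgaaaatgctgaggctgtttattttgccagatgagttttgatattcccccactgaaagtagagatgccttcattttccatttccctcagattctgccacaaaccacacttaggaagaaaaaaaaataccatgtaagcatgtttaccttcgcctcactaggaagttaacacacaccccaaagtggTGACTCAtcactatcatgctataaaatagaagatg
The pattern stood in 23 of the 272 genes called higher that had a window (8.46%), in 13 of the 230 called lower (5.65%), in 710 of the 11550 tested genes with a window (6.15%), and in 7.82% of all 27025 genes with a window. A gene was counted if any of its windows matched. A match describes the letters of a window only. Of 158 named genes, 123 had a window in the RefSeq table used.

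Adhesion genes included 3 rises and no fall among 28 tested members (10.7%, against 2.16% of all genes higher), with a median of 0.01. Itgb7, the integrin β7 chain, was at 6.53, 6.81 and 6.95 in M2b and 4.96, 5.29 and 5.45 in IFN-γ macrophages, a difference of 1.53 ± 0.32 (SE; limma, adjusted p = 0.00483). Alcam, an adhesion molecule that binds CD6, differed by 1.06 and Itga5, the α chain of the fibronectin receptor, by 0.92. The M2b arrays lie above the IFN-γ arrays for all 3 genes, and these calls were kept on leaving out each of the 6 arrays.

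In arginine metabolism, Arg1 rose and Nos2 did not. Arg1, which turns arginine into ornithine and urea, was at 1.26, 1.32 and 1.13 in M2b and -1.53, -1.81 and -2.25 in IFN-γ macrophages, a difference of 3.10 ± 0.40 (SE; limma, adjusted p = 3.93e-05). Odc1, which turns ornithine into putrescine, differed by 0.40 ± 0.11 (SE; adjusted p = 0.0412), and its call was lost without IFN-γ array 1 or 2 or M2b array 2 or 3. Nos2, the inducible nitric oxide synthase, was well above background on 1 M2b array and on no IFN-γ array, and no fold is given. Together with the oxidase subunits, 2 of 20 tested members of that list rose and none fell (10.0%, against 2.16% of all genes higher). The list median was -0.11.

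Arg1 also belongs to the alternative activation list, in which 2 of 29 tested members rose and 1 fell, with a median of -0.17. These shares were 6.90% and 3.45%, against 2.16% of all genes higher and 1.78% lower. Klf4 was the other rise, and the fall was Matk, a kinase that restrains Src kinases, by 1.56 on the log2 scale (limma, adjusted p = 0.0356) on 1 probe, while a second probe above background on all 6 arrays differed by 0.032. Retnla, a marker of IL-4-stimulated macrophages, was not well above background in either group. Mrc1, the mannose receptor, differed by -0.98 without passing. The call of Matk was lost without any 1 of the 6 arrays (adjusted p up to 0.155).

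Among 33 tested T cell costimulators and inhibitors, 3 rose and none fell (9.09%, against 2.16% of all genes higher), with a median of -0.07. With slide as a block 5 rose and 4 fell, where 3.89% of all genes rose and 3.71% fell. Cd200, the ligand of an inhibitory myeloid receptor, was at -1.64, -2.22 and -0.81 in M2b and -4.64, -3.82 and -3.29 in IFN-γ macrophages, a difference of 2.36 ± 0.50 (SE; limma, adjusted p = 0.00564). Cd276, or B7-H3, was at least 2.40-fold higher, with no IFN-γ array above background (adjusted p = 0.00269). Havcr2, or TIM-3, differed by 1.06 (adjusted p = 0.0365). Cd274, which encodes PD-L1, differed by 0.16, Cd40 by 0.57 and Cd86 by -0.26 (0.04 without IFN-γ array 1), none past the threshold. The call of Cd200 was lost without IFN-γ array 1 or M2b array 3 (adjusted p up to 0.0677) and that of Havcr2 without any 1 of the 6.

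Other rises lay in smaller sets. Ptgir, the prostacyclin receptor, was at 0.92, 0.90 and 1.02 in M2b and -1.08, -1.36 and -1.06 in IFN-γ macrophages, a difference of 2.11 ± 0.23 (SE; limma, adjusted p = 5.53e-06), while a dimmer second probe differed by 0.32. Slc2a3, the glucose transporter GLUT3, was at -0.58, -0.34 and -0.04 in M2b and -2.60, -2.23 and -2.12 in IFN-γ macrophages, a difference of 2.00 ± 0.24 (SE; adjusted p = 1.43e-05). The probes of Ptgir differ from each other by more than its replicates do. Egln3, an oxygen-sensing prolyl hydroxylase, differed by 2.87 with 1 IFN-γ array above background. With Slc2a3 it made up the 2 rises among 35 tested glycolysis and hypoxia genes (5.71%, against 2.16% of all genes higher). The list median was 0.22, with 28 of 35 above 0. With slide as a block 6 of the 35 rose, among them Eno2 (difference 0.82), and none fell, where 3.89% of all genes rose.

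Il7r, the IL-7 receptor α chain, was at 3.64, 3.76 and 4.08 in M2b and 2.14, 2.40 and 2.41 in IFN-γ macrophages, a difference of 1.51 ± 0.31 (SE; limma, adjusted p = 0.00455). It was the only called gene of the T and NK cell markers, whose other members are given above. Acp5, the tartrate-resistant acid phosphatase of osteoclasts and macrophages, differed by 1.23, the cysteine protease Ctsl by 0.96 and Anxa1, a lipid-binding protein that glucocorticoids induce, by 1.01. Scd1, a fatty acid desaturase, was at least 1.89-fold higher. Dcn, a proteoglycan listed among the stromal markers above, was at least 2.33-fold higher. Neither had an IFN-γ array above background. Of these, Il7r kept its call on leaving out each array, whereas Acp5, Ctsl, Anxa1, Scd1 and Dcn lost theirs without IFN-γ array 1 or M2b array 3, among others (adjusted p up to 0.207).

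Npr2 had the largest fall, and Apoe the largest among the lipid efflux genes. Npr2, the guanylyl cyclase receptor for C-type natriuretic peptide, was at -1.72, -3.11 and -3.78 in M2b and 1.80, 0.57 and 0.71 in IFN-γ macrophages, a difference of -3.89 ± 0.68 (SE; limma, adjusted p = 0.00101). Apoe, the apolipoprotein that carries cholesterol away from macrophages, was at 6.38, 6.34 and 4.78 in M2b and 9.002, 8.76 and 8.75 in IFN-γ macrophages, a difference of -3.002 ± 0.44 (SE; adjusted p = 0.000169). The third M2b array is lowest for both genes, and every M2b array lies below every IFN-γ array.

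Of 30 tested lipid efflux, LXR and PPAR target genes, 5 fell and none rose (16.7%, against 1.78% of all genes lower), with a median of -0.22. Beside Apoe they were Apoc1, its neighbour on chromosome 7, by -1.34, Abca1, the transporter that loads cholesterol on to apolipoproteins, by -1.31, Cyp27a1, which makes 27-hydroxycholesterol, by -0.89, and Rxra, the partner receptor of LXR and PPAR, by -0.70 (limma, adjusted p from 0.0152 to 0.044). A second Rxra probe differed by -0.28. Every M2b array lies below every IFN-γ array for these genes. Plin2, a lipid droplet protein, differed by 0.71 and passed only with slide as a block (adjusted p = 0.0287). Apoe alone of the 5 kept its call on leaving out each array; Apoc1 lost it without IFN-γ array 1 or M2b array 3, Abca1 without any but M2b array 2, and Cyp27a1 and Rxra without any 1 of the 6 (adjusted p up to 0.319).

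Genes for the uptake of dying cells were among the falls. Among 34 tested scavenger receptor and efferocytosis genes, 4 fell and none rose (11.8%, against 1.78% of all genes lower), with a median of -0.30. With slide as a block 8 fell, where 3.71% of all genes fell. Mertk, the receptor kinase for phosphatidylserine bridged by Gas6 or protein S, was at 0.72, 0.86 and 0.40 in M2b and 2.47, 2.44 and 2.79 in IFN-γ macrophages, a difference of -1.90 ± 0.47 (SE; limma, adjusted p = 0.0181). Gas6, its ligand, was at 2.10, 1.77 and 1.37 in M2b and 3.43, 3.46 and 3.57 in IFN-γ macrophages, a difference of -1.74 ± 0.34 (SE; adjusted p = 0.00306). Pros1, which encodes protein S, the other ligand, differed by -0.99 ± 0.22 (SE; adjusted p = 0.00763), so the receptor and both ligands were lower on all 3 slides.

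The fourth was Abca1. Mfge8, a further bridging protein, differed by -1.34, and Marco, a scavenger receptor, by -2.04, each past the threshold only with slide as a block (adjusted p = 0.0199 and 0.0279). Mertk is also 1 of the macrophage markers and the only called one. Adgre1, another of these markers, was not called, and its levels averaged 7.20 in M2b and 7.64 in IFN-γ macrophages. Gas6 kept its call on leaving out each array, Mertk lost it without M2b array 3 or any 1 IFN-γ array, and Pros1 without IFN-γ array 1 or M2b array 3 (adjusted p up to 0.109).

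MHC class II genes, which present peptides to CD4 T cells, were also among the falls. Of 16 tested members 2 fell and none rose (12.5%, against 1.78% of all genes lower), with a median of -0.63. With slide as a block 5 fell and 1 rose, where 3.71% of all genes fell and 3.89% rose. H2-Aa, the class II α chain, was at 2.82, 2.38 and 1.16 in M2b and 4.49, 3.98 and 3.64 in IFN-γ macrophages, a difference of -1.91 ± 0.53 (SE; limma, adjusted p = 0.038), and a second probe differed by -1.93. H2-DMb2, a chain of the peptide exchanger H2-M, differed by -0.85 ± 0.23 (SE; adjusted p = 0.0355). The M2b arrays lie below the IFN-γ arrays, with array 3 the lowest.

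The remaining members of the pathway that stood out missed the threshold. Cd74, the invariant chain, was at 5.84, 5.03 and 3.92 in M2b and 7.15, 6.82 and 6.33 in IFN-γ macrophages, a difference of -1.84 (limma, adjusted p = 0.0829; 0.0339 with slide as a block). H2-Eb1 differed by -1.99 and H2-Ab1 by -1.68 (adjusted p = 0.0583 and 0.0636), and Ciita, the class II transactivator, by -1.80. For each of these 4 genes every M2b array lies below every IFN-γ array. The calls of H2-Aa and H2-DMb2 were lost without IFN-γ array 1 or 2 or M2b array 2 or 3, and that of H2-Aa also without IFN-γ array 3 (adjusted p up to 0.315).

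Promoters of the class II genes that passed are shown because class II promoters are known to share an X and a Y box, the second of which holds a CCAAT element. The windows are again the 250 bases before the RefSeq start in GRCm38.p6, on the gene's strand. Capitals mark ATTGG, the reverse complement of CCAAT, and in H2-Aa also TGACGTCA, the cyclic AMP response element; both strands were searched and the elements do not overlap. The H2-Aa window is chr17:34287824-34288073, minus strand, with TGACGTCA 74 to 67 and ATTGG 48 to 44 bases before the start. The H2-DMb2 window is chr17:34144999-34145248, plus strand, with ATTGG 90 to 86 bases before the start.
H2-Aa: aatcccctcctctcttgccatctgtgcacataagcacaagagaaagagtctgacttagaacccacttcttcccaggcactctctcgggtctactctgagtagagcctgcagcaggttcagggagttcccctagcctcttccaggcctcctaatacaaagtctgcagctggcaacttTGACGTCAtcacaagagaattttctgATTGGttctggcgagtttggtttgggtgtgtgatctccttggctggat
H2-DMb2: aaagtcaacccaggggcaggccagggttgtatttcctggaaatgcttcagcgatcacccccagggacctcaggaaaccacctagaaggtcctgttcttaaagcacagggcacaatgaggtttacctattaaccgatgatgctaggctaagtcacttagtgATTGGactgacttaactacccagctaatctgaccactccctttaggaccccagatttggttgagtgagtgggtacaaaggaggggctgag
Counted by gene as before, CCAAT on either strand was in 37.5% of all 27025 genes with a window and 39.8% of those tested. It was in 37.5% of those called higher and 42.2% of those called lower. TGACGTCA was in 1.77% of all genes with a window, in 327 of the 11550 tested genes with a window (2.83%), in 11 (4.04%) of those called higher and in 3 (1.30%) of those called lower.

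The wider interferon programme differed little by count. None of the 34 tested IFN-γ-induced genes passed in limma (5 lower and none higher at an unadjusted p under 0.05), although the median was -0.29 and only 3 of 34 lay above 0; with slide as a block 2 fell. The IFN-γ receptor chain Ifngr1 was at 5.41, 5.35 and 5.03 in M2b and 5.88, 5.88 and 5.69 in IFN-γ macrophages, a difference of -0.56 ± 0.12 (SE; limma, adjusted p = 0.00904), and Tyk2, a Janus kinase of type I interferon signalling, differed by -0.45 (adjusted p = 0.0442). They were the 2 falls among 28 tested STAT and SOCS pathway genes (7.14%, against 1.78% of all genes lower), with a median of -0.07. Both lost the call without IFN-γ array 1 or 2 or M2b array 3. Of 30 type I interferon-stimulated genes, 27 lay above 0 with a median of 0.27, and 1 passed (3.33%, against 2.16% of all genes higher). This was the exonuclease Isg20, by 0.94 (limma, adjusted p = 0.0235, lost without IFN-γ array 1 or 2 or M2b array 2 or 3).

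Inflammatory cytokines as a list had no call among 25 tested members (limma; 3 higher and none lower at an unadjusted p under 0.05, 1 higher with slide as a block). The IL-1 and IL-18 list had none among 20 (3 higher and 3 lower unadjusted; 1 higher and 2 lower with the block). Il1rn, the IL-1 receptor antagonist, differed by 1.60 and passed only with the block (adjusted p = 0.0316). Within the NF-κB list of 25, Traf1, an adaptor of TNF receptors, differed by 0.91, Cflar, the inhibitor of caspase 8, by 0.61, and Tnfaip2, a TNF-induced protein, by -0.58 (limma, adjusted p = 0.0321, 0.0027 and 0.000735). Cflar was at 5.01, 5.00 and 5.01 in M2b and 4.27, 4.42 and 4.50 in IFN-γ macrophages, a gap with tight arrays that other probes put at 0.75 to 1.68, and Traf1 lost its call without IFN-γ array 1 or 2 or M2b array 1 or 3.

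Proliferation, antigen processing and sensing were also read by their counts. DNA replication and mitosis genes had no call among 44 tested members (limma; 1 lower and none higher at an unadjusted p under 0.05, and none with slide as a block; median -0.13). MHC class I presentation and Toll-like receptor genes had none among 19 and 23 (2 and 3 lower and 0 and 1 higher unadjusted; 2 lower, and 1 lower with 1 higher, with the block). All 19 class I differences lay below 0, from -0.47 to -0.04, with a median of -0.16. NRF2 targets had 3 falls among 31 (9.68%, against 1.78% of all genes lower). These were Blvrb, the biliverdin reductase B, by -1.06, the microsomal glutathione transferase Mgst1 by -0.58, and Nfe2l2, which encodes NRF2 itself, by -0.39. Other Nfe2l2 probes above background on all 6 arrays differed by -0.42 and 0.58, so its probes do not share a direction. Each of these 3 lost the call without M2b array 3 and without at least 1 IFN-γ array.

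Receptors and lysosomal enzymes added single genes. Tgfbr2, the type II TGF-β receptor, was at 2.94, 2.78 and 2.47 in M2b and 3.47, 3.55 and 3.49 in IFN-γ macrophages, a difference of -0.77 ± 0.12 (SE; limma, adjusted p = 0.000394), and a second probe differed by -0.37. Clec4a2, a lectin receptor with an inhibitory motif, differed by -0.99. Man2b1, a lysosomal mannosidase, differed by -0.75 and Pla2g15, a lysosomal phospholipase, by -1.10. Tgfbr2, Man2b1 and Pla2g15 kept their calls on leaving out each array, while Clec4a2 lost it without IFN-γ array 1 or M2b array 3.

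A set of dimmer probes also fell. Tmem176b and Tmem176a, neighbouring genes for ion channel-like proteins of immature dendritic cells, were at least 5.67-fold and 2.14-fold lower in M2b, with no M2b array above background (limma, adjusted p = 8.78e-05 and 0.00789). Exoc3l2, an exocyst-like protein, was at least 3.32-fold lower and Apol7c, an apolipoprotein L, at least 2.47-fold lower. With normexp background correction in limma none of these 4 passed: the differences were -0.77 for Tmem176b, -0.41 for Tmem176a, -0.70 for Exoc3l2 and -0.56 for Apol7c (adjusted p = 0.245, 0.98, 0.412 and 0.974). Abca9, an ABC transporter, and Nat8l, which makes N-acetylaspartate, differed by -3.27 and -3.02 with 1 M2b array above background, and Siglecf, a sialic acid-binding receptor known on eosinophils and alveolar macrophages, by -2.41 with 2. Tmem176a lost its call without M2b array 3 (adjusted p = 0.11), and Siglecf without IFN-γ array 1 or 2 or M2b array 2 or 3 (adjusted p up to 0.227).

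Other named genes also lost the call with normexp, each with a difference of the same sign. Among the rises these were Cd276, Cd200, Cx3cr1, Sdc1, Vegfc, Scd1, Dcn, Egln3, Hoxa7, Trim46, Traf1, Dusp6, Pdgfa and Odc1. Among the falls they were Siglecf, H2-Aa, Ptpn6, Apoc1, Cyp27a1, Rxra, Mgst1, Nfe2l2, Ifngr1, Tyk2, Dnah2, Coq8a, Ppp1r12b, Per2, Acy3 and Klhl9.

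**Figure D4:**
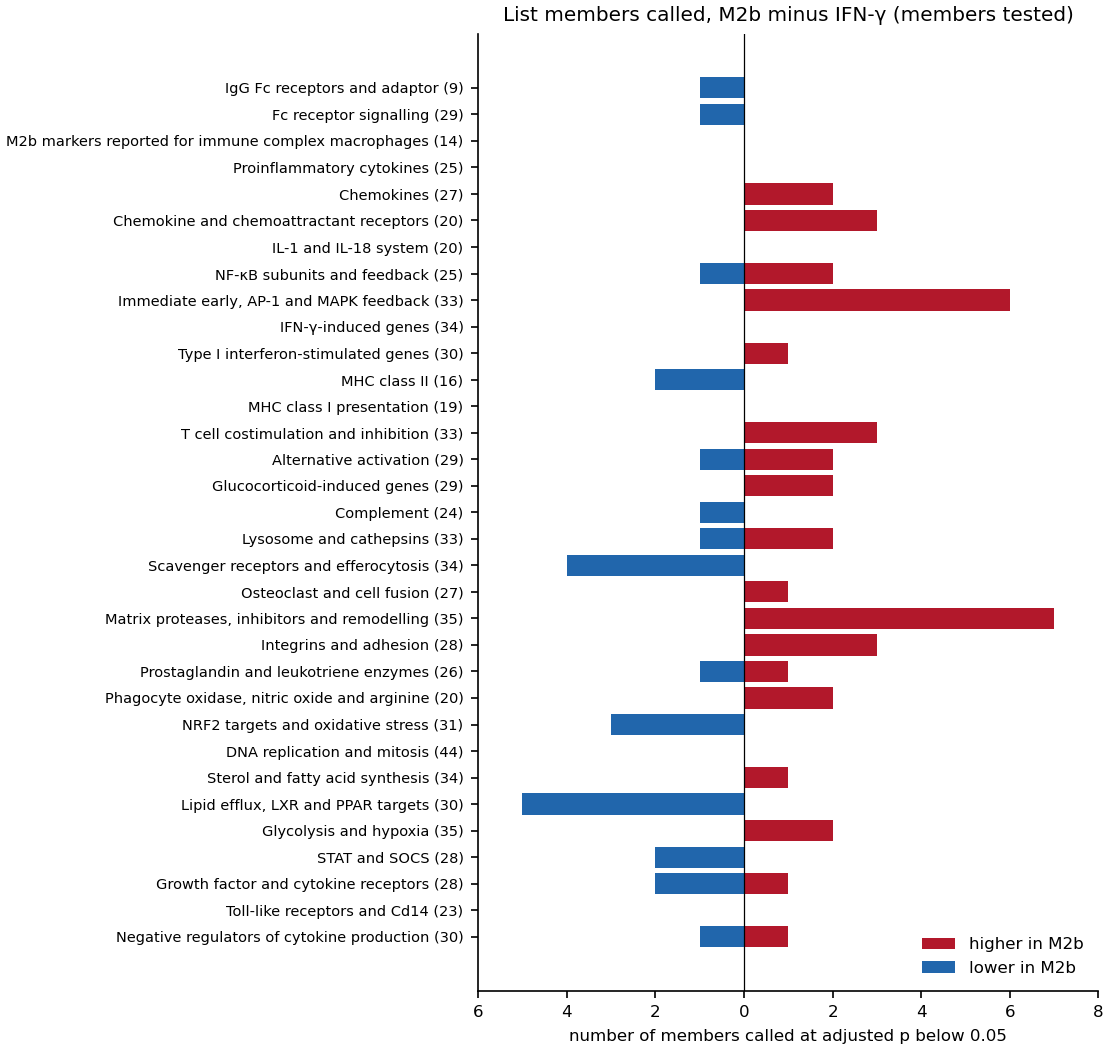
Bars give the number of called members of each of 33 gene lists, higher in M2b on one side of 0 and lower in M2b on the other (limma, adjusted p under 0.05). Matrix genes (7) and immediate early, AP-1 and MAP kinase feedback genes (6) have the most rises. Lipid efflux genes (5) and efferocytosis genes (4) have the most falls. The lists differ in size, and of all genes tested 2.16% were higher and 1.78% lower.

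Against M1 macrophages, which share IFN-γ and have LPS in place of the coating, far more genes differed: 8845 of 17606 tested (50.2%), 4024 higher (22.9%) and 4821 lower (27.4%) in M2b (limma, adjusted p under 0.05). M1 arrays lay on other slides, so slide and group cannot be told apart here. Of the 381 genes higher in M2b than in IFN-γ macrophages, 218 were also higher than in M1, 68 were lower and 95 did not pass. Of the 313 lower, 149 were also lower than in M1, 74 were higher and 90 did not pass. Both comparisons share the M2b arrays, so these counts are not independent of each other.

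Single genes fall on different sides of M1. Pdpn averaged -0.49 ± 0.57 in M2b and -0.43 ± 0.59 in M1 (SD, n = 3 each), and Ccl7 averaged 6.54 ± 0.53 in M2b and 6.14 ± 0.46 in M1, neither past the threshold. Arg1 averaged 1.23 ± 0.10 in M2b and -4.19 ± 0.09 in M1, a difference of 5.42 (limma, adjusted p = 1.4e-11), and Angptl2 differed by 5.95 in the same direction with 2 M1 arrays above background. Ccl2, Fosl1 and Cd200 were lower in M2b than in M1, by 1.33, 1.35 and 4.51 on the log2 scale, although each was higher than in IFN-γ macrophages. Mertk, at 0.66 ± 0.24 in M2b and 4.75 ± 0.21 in M1, was lower in M2b than in both.

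Genes whose M2b level differed from every one of the other 11 groups in the same direction in limma numbered 16, with 6 higher (0.0341%) and 10 lower (0.0568%). Only IFN-γ macrophages, M2c and Mo-DC shared slides with M2b. For every other group, here and in the group levels below, slide and group cannot be told apart. The higher ones were Cth, which makes hydrogen sulfide and cysteine from cystathionine, the homeobox gene Hoxa7, Vcpkmt, a methyltransferase, Trim46, a microtubule-binding protein, and AK087344 and TC1661772, which carry only array names. The lower ones were Trf, which encodes transferrin, Dnah2, a dynein chain, Coq8a, an atypical kinase of coenzyme Q synthesis, Abcb9, a lysosomal peptide transporter, Ppp1r12b, a myosin phosphatase subunit, the clock gene Per2, Rxra, Acy3, an aminoacylase, Klhl9, a ubiquitin ligase adaptor, and 2610035D17Rik. Second probes above background on all 6 arrays differed between M2b and IFN-γ macrophages by 0.040 for Per2, 0.042 for Ppp1r12b, -0.28 for Rxra and -0.23 for Klhl9, so the place of Per2 and Ppp1r12b in this set rests on 1 of their probes.

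Hoxa7 was at -2.52, -0.94 and -1.60 in M2b and -3.62, -3.59 and -3.28 in IFN-γ macrophages, a difference of 1.81 ± 0.31 (SE; limma, adjusted p = 0.000743). Trf was at 2.14, 1.53 and 0.95 in M2b and 3.80, 3.43 and 3.16 in IFN-γ macrophages, a difference of -1.92 ± 0.34 (SE; adjusted p = 0.00134). Cth was at -1.18, -0.16 and 0.09 in M2b and -2.88, -3.22 and -1.66 in IFN-γ macrophages, and M0 was the nearest group at -2.56 ± 0.43 (SD, n = 3). The count of 16 became 9 without IFN-γ array 1 or M2b array 3 and 10 without IFN-γ array 2, M1 array 2 or 3 or M2c array 2.

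Genes that led the comparison had different orders over the groups. Arg1 averaged 7.48 in Mo-DC, 7.05 in unsorted Mreg, 6.08 in M2a, 5.54 in Mreg, 4.78 in Mreg without IFN-γ and 3.18 in Mreg with LPS, all above the 1.23 of M2b, which in turn lay above M2c (-1.67), IFN-γ macrophages (-1.86), M1 (-4.19) and M0 (-4.35), with no monocyte array above background. M2c and IFN-γ macrophages, and M1 and M0, lie within the spread of each other. Cav1 averaged between 3.34 and 3.96 in Mo-DC and the 4 Mreg cultures, against 0.14 in M2b and -3.55 in IFN-γ macrophages, so the M2b level lay between them. Apoe averaged 5.83 ± 0.91 in M2b, close to 5.86 ± 0.87 in fresh monocytes and above 3.35 ± 1.07 in Mo-DC, while the other 9 groups lay between 8.60 and 9.65.

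**Figure D5:**
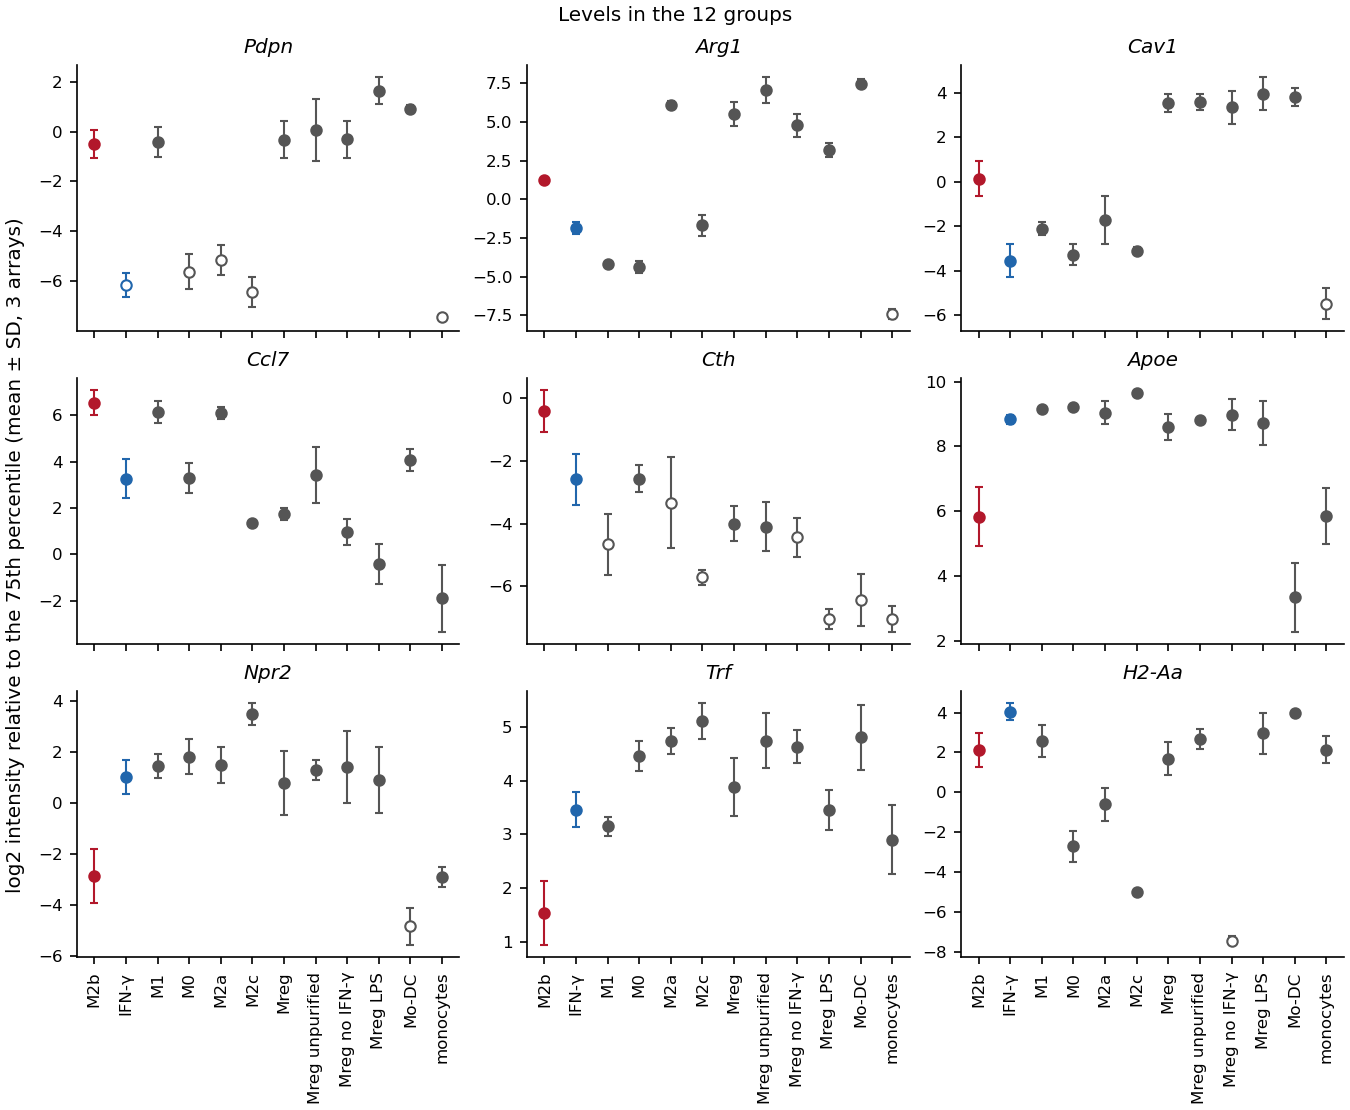
Mean log2 level ± SD of 3 arrays in each of the 12 groups for Pdpn, Arg1, Cav1, Ccl7, Cth, Apoe, Npr2, Trf and H2-Aa, with open symbols for a group not above background on all 3 arrays. Arg1 and Cav1 are higher in M2b than in IFN-γ macrophages and higher still in Mreg and Mo-DC, Apoe and Npr2 are low in M2b, Mo-DC and monocytes, and Trf is lowest in M2b.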

How the data were processed

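RNA of 36 samples was labelled with Cy3 and hybridised to Agilent arrays of design 014868 (probe build mm8), and spot intensity was background-corrected by Agilent Feature Extraction 10.5.1.1 (protocol GE1_105_Jan09), per the file headers. The authors also deposited a table of log2 values, normalised between arrays by a method not given in the sources used here. It correlated with the processed signals at 0.99738 or more and served as an alternative.

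Spots flagged by the program as uneven or outlying were set to missing, signals were scaled to the 75th percentile of the array, and 26478 probes remained after a filter that asks for 3 of the 36 arrays to be well above background. The brightest probe stood for its gene. Group means were fitted over all 36 arrays with limma 3.58.1 (R 4.3.3), and genes were called at an adjusted p under 0.05. Where no array of a group was above background, the fold is a bound against the lowest signal called above background; p-values beside bounds test the unraised values. Of 41174 probes, 24375 were named by accession, 6301 by symbol and 2426 by synonym (GRCm38.p6, names and promoters only). Precision is limited by the number of arrays. Arrays of the same series number shared a slide, and their deviations from group means correlated at 0.43, 0.23 and 0.38, so slide is a pairing.

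The genes named are the 15 largest rises and falls among calls whose arrays do not overlap, the called members of the lists (up to 8 each), genes set apart in M2b, and a preset list of Fc receptor and activation genes; Plin2, Eno2, Marco, Mfge8, Ccr2, Il1rn and the uncalled class II genes were added for their values with slide as a block. Some genes picked by these criteria are not reported here. Other probes above background on all 6 arrays are quoted where their sign or size differed from the probe used, and for some genes where it did not. The groups, gene lists and tests were chosen with earlier results of these data known. On simulated data for this comparison (17607 genes, 50 changed at each size), 32, 66, 96 and 96% of changes of 0.5, 1, 2 and 3 log2 units were recovered, with 5 false calls. The simulated noise was independent between genes and arrays, without the slide pairing given above, so these figures may not hold for the real arrays.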

Additional observations from a re-analysis of the deposited data

How the results depend on the processing

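The count of genes called between M2b and IFN-γ macrophages (694) became 275 with normexp background correction, 425 with only the 2 groups in the fit and 341 on a single scan day. It became 1103 with the series number as a replicate block, 1337 with slide as the block, 1297 with slide as a random block, and 245 to 664 on leaving out 1 of the 6 arrays. The other settings gave 487 (no filter on dim probes), 593 (mean of all probes), 716 (block, only the 2 groups), 741 (filter of 18 arrays), 757 (quantile normalisation), 762 (the authors' table) and 696 (flagged spots kept); only the count was compared there. Fits on fewer arrays have fewer samples to estimate the spread, but the count also differed with the array left out. It was 664 without M2b array 1 and 245 without M2b array 3. The cause of these changes in count was not tested. The M2b and M1 count (8845) lay between 6116 (normexp) and 13095 (no filter), and between 7924 and 8113 on leaving out 1 array; 4024 were higher and 4821 lower, against 4791 and 3936 with quantile normalisation. The 16 genes set apart became 6 with normexp and 9 to 21 on leaving out 1 array; with the series block they were 23. Of 101 named genes that were called, 20 were called in every alternative (Pdpn, Angptl2, Arg1, Cav1, Emp2, Ccl7, Npr2, Mmp13 and Itgb7 among them) and 53 on leaving out each of the 6 arrays; none changed sign. The alternatives were compared for only part of the named genes that were not called. Among that part, the sign turned for Fcgr1 (0.033 with quantile normalisation, 0.035 with the mean of probes, 0.023 with the authors' table), Il10 (0.17 on a single scan day) and Il6 (-0.063 with normexp). On leaving out 1 array it also turned for those and 3 more, with ranges of -0.075 to 0.022 (Fcgr1), -0.39 to 0.50 (Il10), -0.49 to 0.76 (Il6), -0.20 to 0.21 (Tnf), -0.64 to 0.035 (Cd86) and -0.97 to 0.42 (Nos2). Apart from Cx3cr1, the slide block ended no call among the named genes; beyond those stated in the report it added calls only. Signal near background limits the folds of the dim genes, and 3 arrays a group limit the rest.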

Other observations

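Several genes that were lower in M2b than in IFN-γ macrophages were also low in Mo-DC and monocytes. Olfr812, an olfactory receptor gene, averaged -3.11 ± 0.29 in M2b and -0.86 ± 0.13 in IFN-γ macrophages, and Vmn2r30, a vomeronasal receptor gene, -5.58 ± 0.41 and -3.35 ± 0.25 (SD, n = 3 each), the second with 1 M2b array above background. Like Apoe and Npr2, both were low in M2b, Mo-DC and monocytes, and all 4 were highest in M2c (9.65 for Apoe, 3.47 for Npr2, 1.78 for Olfr812 and -1.22 for Vmn2r30). These probes share arrays, and whether the receptor probes read their own transcripts was not tested. Dmpk, a kinase gene known from muscle, was at 0.55, -0.28 and -0.96 in M2b and 2.71, 1.99 and 1.85 in IFN-γ macrophages, a difference of -2.42 (limma, adjusted p = 0.0313; a second probe differed by -1.75), and Dnase1l3, a nuclease that digests chromatin in apoptotic particles, differed by -2.60 (adjusted p = 0.0497); both calls were lost without any 1 array other than M2b array 1, and those of Dnase1l3 and Vmn2r30 with normexp.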
